A study of Mus musculus with 50 samples.

Results

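Cytokines, chemokines and their receptors were measured in the testis and spinal cord of wobbler mice by 115 array probes for 95 genes, out of 20355 probes in all and 9930 named genes. A probe was a member when its platform gene symbol starts with Ccl, Cxcl, Ccr, Cxcr, Tnf, Ifn or Tgfb, or with Il followed by a digit. The rule uses no measured value, but it was chosen with earlier results of these data known. The symbol rule also catches a few genes that are neither cytokine nor receptor, such as Il4i1, Tgfbi and Tgfbrap1, which are described apart. Of the member genes, 15 had several probes. On the whole array 14030 probes carried 1 gene symbol, 5 carried several and 6320 carried none.

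Cytokines are small secreted proteins through which immune and tissue cells signal over short distances, and chemokines are the cytokines that steer migrating cells. Interleukins and interferons signal mostly through JAK and STAT proteins, the TNF family through TRAF adaptors and NF-kB, and the TGF-beta family through SMADs. In the spinal cord microglia and astrocytes are major sources of TNF and chemokines, and in the testis macrophages, Leydig cells and Sertoli cells make cytokines that act on the germ cells beside them.

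Wobbler mice are homozygous for a recessive mutation (wr/wr) of Vps54, a subunit of a complex that tethers vesicles to the Golgi, and they lose motor neurons and form defective sperm. Testis RNA of 10 individual wr/wr mice was labelled for 40 arrays, 4 per mouse, with a single wild-type testis pool as the other channel. Cord RNA of wr/wr mice took 10 arrays, each shared with a single wild-type cord pool, and came as pool1 (mice 6069, 6335, 6493 and 5997), pool2 (mice 5906, 5905, 6065 and 6163) and the single mouse 5995, and all 9 of these mice are among the testis mice. The sample labels list 10 mice for the wild-type testis pool, and the labelling protocol gives 6, a difference that was not settled. Neither age nor genetic background is given by the labels, and no treatment is named for any group.

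Each value is a deposited ratio, read here as a log2 ratio of wr/wr over wild type. This direction is likely, since the labels list the mutant RNA first, but is not stated, and with the opposite reading every sign below turns. Between 18338 and 20189 probes had a value on an array, and the median absolute deviation of the ratios on an array had a median of 0.174 in testis and 0.352 in cord. Mouse 5995 had 2 cord arrays, against 4 for each cord pool. Their deviations were 0.492 and 0.483, against 0.217 to 0.458 on the pool arrays. In the tests this RNA counted as much as a pool. The dye orientation set much of the likeness between arrays. Across probes, cord arrays of different RNAs in 1 dye had a median Spearman rho of 0.244 and arrays of 1 RNA in opposite dyes -0.083, and the testis values were 0.198 and 0.11. Within an RNA the Cy5 and Cy3 arrays correlated below 0 in all 3 cord RNAs (rho -0.238 to -0.03) and in testis mice 5905, 5997 and 6065 (-0.223, -0.114 and -0.311). Ratios hold no expression level, so the identity of the tissues could not be checked against defining markers, and no gene's level can be set against another's. Each tissue has 1 wild-type pool, so how wild-type mice vary enters no test.

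The upstream sequences of the genes on which the results turn are shown first, because Il18 with its inhibitor Il18bp, and Tnf with its receptors Tnfrsf1a and Tnfrsf1b, are ligand and partner sets measured side by side. Each window holds the 250 bases before the listed start of transcription in RefSeq (build GRCm38.p6), on the strand of the gene, with matches to any of 4 searched motifs in capitals. The windows lie at chr9:50554450-50554699 for Il18 (plus strand), chr7:102018233-102018482 for Il18bp (minus), chr17:35202008-35202257 for Tnf (minus), chr6:125349473-125349722 for Tnfrsf1a (plus) and chr4:145246871-145247120 for Tnfrsf1b (minus).
Il18: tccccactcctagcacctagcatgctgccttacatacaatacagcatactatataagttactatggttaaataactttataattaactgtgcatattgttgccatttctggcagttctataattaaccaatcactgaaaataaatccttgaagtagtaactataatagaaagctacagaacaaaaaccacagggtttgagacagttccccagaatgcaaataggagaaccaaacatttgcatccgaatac
Il18bp: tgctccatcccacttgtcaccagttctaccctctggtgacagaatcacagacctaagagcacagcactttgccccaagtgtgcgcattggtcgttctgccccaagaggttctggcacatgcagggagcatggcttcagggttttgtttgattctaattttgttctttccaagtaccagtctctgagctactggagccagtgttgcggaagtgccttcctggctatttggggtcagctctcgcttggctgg
Tnf: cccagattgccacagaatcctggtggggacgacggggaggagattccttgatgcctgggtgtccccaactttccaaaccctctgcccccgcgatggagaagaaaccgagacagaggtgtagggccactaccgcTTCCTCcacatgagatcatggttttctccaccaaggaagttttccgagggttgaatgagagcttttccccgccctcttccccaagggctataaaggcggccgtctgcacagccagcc
Tnfrsf1a: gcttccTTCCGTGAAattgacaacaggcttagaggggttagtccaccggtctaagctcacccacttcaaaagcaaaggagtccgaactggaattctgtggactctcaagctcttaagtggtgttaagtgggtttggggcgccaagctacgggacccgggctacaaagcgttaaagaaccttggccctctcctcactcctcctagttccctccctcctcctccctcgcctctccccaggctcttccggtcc
Tnfrsf1b: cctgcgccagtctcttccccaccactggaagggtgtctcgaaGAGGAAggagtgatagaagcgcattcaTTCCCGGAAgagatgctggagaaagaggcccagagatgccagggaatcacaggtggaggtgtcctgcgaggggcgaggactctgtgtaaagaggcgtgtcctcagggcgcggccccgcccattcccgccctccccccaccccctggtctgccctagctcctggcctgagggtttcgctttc
The motifs, searched on both strands and allowed to overlap, were that of NF-kB, the interferon-gamma activated site (GAS) TTCNNNGAA, the AP-1 motif TGANTCA and the PU.1 core GAGGAA. The Tnf window held 1 PU.1 match, whose first base lies 117 bases before the start. The Tnfrsf1a window held 1 GAS match at 244 bases, and the Tnfrsf1b window held a PU.1 match at 208 bases and a GAS match at 181. The Il18 and Il18bp windows held none of these letters. Of the 95 genes, 74 had a window in the table, and the NF-kB motif was found in 17 of them (23.0%, against 8.24% of all 27018 genes with a window). The AP-1 motif was found in 11 (14.9% against 7.82%), the GAS in 10 (13.5% against 8.13%) and the PU.1 core in 25 (33.8% against 25.9%). Of the 9 genes called in testis below, Il16 had an NF-kB and an AP-1 match, Il1rn an AP-1 match and Ccl21a a PU.1 match. A match describes letters in this window and no binding was measured.

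In the testis, 11 member probes of 9 genes were called lower in wr/wr mice and 0 higher. The lower genes were the interleukins Il18, Il7, Il16 and Il31, the cytokine inhibitors Il18bp and Il1rn, the chemokines Ccl21a and Cxcl12 and the interferon-gamma receptor subunit Ifngr1. Calls are those with a limma adjusted p under 0.05 over all 20176 probes tested, which needed values in at least 8 of 10 mice, and 99 of the 115 members (81 genes) were tested. The 11 lower calls are 11.1% of the members tested, against 5.16% of all probes tested, and the 0 higher calls compare with 7.44% of all probes (12.6% called in either direction). At an unadjusted p under 0.05, 20 members were lower (20.2%, against 14.5% of all probes) and 6 higher (6.06% against 16%), 26.3% in all against 30.6%. In every mouse with a value, 6 members were below 0 (6.06% against 3.17%) and 0 above (3.33% of all probes). The median member log2 ratio was -0.06 (32 members above 0 and 67 below), against a median of -0.01 over all probes. In these bulk samples fewer cells of a type and less RNA per cell cannot be told apart.

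Leaving out any mouse but 5905 lowered both the count of members called lower and the count of all probes called lower. Without mouse 6493, 3 members (3%) were called lower against 1.78% of all probes, and without 6069 again 3 (2.94% against 2.23%). It was 4 without 6335 (3.96% against 2.77%), 4 without 5995 (3.92% against 3.05%), 5 without 5906 (4.95% against 3.27%) and 5 without 5907 (4.9% against 2.76%). It was 6 without 6163 (6.06% against 3.51%) and 6 without 6065 (5.77% against 4.72%). The count was 10 without 5997 (9.8% against 4.94%) and 9 without 5905 (8.91% against 5.27%).

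A few members were called higher in such fits. Without mouse 5905 it was Ifngr2 (0.23, adjusted p = 0.0414), and without mouse 6065 Tgfb3 (0.18, adjusted p = 0.0237), Il6st (probe 15601; 0.47, adjusted p = 0.0249) and Tnfrsf19 (0.25, adjusted p = 0.0213). Without the 3 mice whose dye orientations correlated below 0, those 4 genes and Il4i1 (probe 5996, 0.16) were called higher, 5.1% of members against 8.57% of all probes. In that fit 9 members were lower (9.18% against 5.54%), of which 5 are among the original 11: Il18bp, Il16, Il1rn (probe 4987), Ccl21a and Ifngr1. Il18 and Il7 could not be tested in it. With the sign of the Cy3 arrays turned, as if every ratio were Cy5 over Cy3, 0 members were lower (0.813% of all probes) and 2 higher, Tgfbr2 (probe 1378) and Tnf (2.02% against 4.05%).

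**Figure D1:**
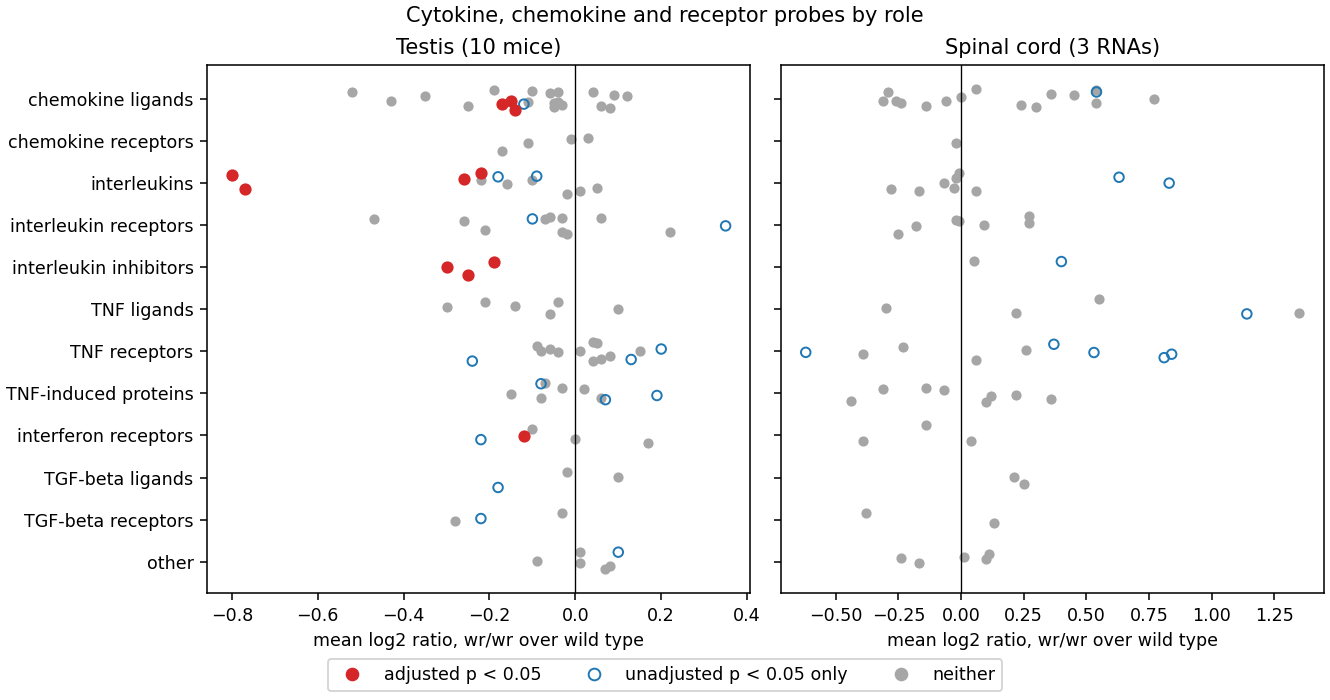
Mean log2 ratio of wr/wr over wild type for every member probe tested, grouped by role (vertical axis), in testis (left, 99 probes) and cord (right, 69 probes). Red points have an adjusted p under 0.05, open circles only an unadjusted p under 0.05. All 11 red points are in testis and below 0, and the horizontal scales of the panels differ.

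Il18, a cytokine of macrophages that drives interferon-gamma release, had a testis log2 ratio from -1.15 to -0.37 with a median of -0.88 over the 8 mice with a value. All 8 were below 0, and the mean was -0.77 ± 0.32 (SD, n = 8), 1.71-fold lower (adjusted p = 0.00746). Il18 was called in each of the 8 fits that left out a mouse with a value. Neither dye orientation alone gave a call, with means of -0.69 in Cy5 (adjusted p = 0.195) and -1.08 in Cy3 (adjusted p = 0.193) over the mice measured in each. By single orientation, 3 of 8 mice were above 0 in Cy5 and 2 of 9 in Cy3, so the common sign holds only for the averaged values.

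Il18bp, the secreted protein that binds Il18 and blocks it, was at -0.82 in the lowest mouse (6065), -0.22 at the median and -0.09 in the highest (5905). All 10 mice were below 0, and the mean was -0.30 ± 0.23 (SD, n = 10), 1.24-fold lower (adjusted p = 0.02). The call was lost without mouse 6493 (adjusted p = 0.0509). Nearly all of the size came from the arrays with the mutant RNA in Cy5, with a mean of -0.55, and the Cy3 arrays had a mean of -0.06 (adjusted p = 0.647).

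Il7, which keeps lymphocytes alive, had the largest mean size among the calls and a wide spread. Its values ran from -1.62 in mouse 6069 through a median of -0.92 to 0.17 in mouse 6493, with 7 of 8 mice below 0. The mean was -0.80 ± 0.66 (SD, n = 8; adjusted p = 0.0337). The call was kept in 3 of the 8 fits that left out a mouse with a value, and lost without mouse 5906, 6069, 6335, 5905 or 6065 (adjusted p = 0.0593 to 0.077).

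Il16, made as a precursor from which a chemoattractant for CD4+ cells is cut, was lower by 1 of its 3 probes. Probe 4313 ranged from -0.68 to -0.01 with a median of -0.21, below 0 in 10 of 10 mice, and its mean was -0.26 ± 0.22 (SD, n = 10; adjusted p = 0.0286). Both dye orientations gave like means, -0.27 in Cy5 and -0.25 in Cy3. The other Il16 probes were at -0.09 ± 0.06 (5627, adjusted p = 0.0669) and 0.05 ± 0.44 (6758), and the mean over the 3 probes was not called (-0.10, adjusted p = 0.219). The call of probe 4313 was lost without mouse 6069, 6335, 5995 or 6493 (adjusted p = 0.051 to 0.069).

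Il1rn, the antagonist that occupies the receptor Il1r1 without signalling, was lower by both of its probes. Probe 4987 ran from -0.52 to 0.09 with a median of -0.27 and 9 of 10 mice below 0, and its mean was -0.25 ± 0.23 (SD, n = 10; adjusted p = 0.0378). Probe 18737 ran from -0.49 to -0.04 with a median of -0.13 and 10 of 10 mice below 0, with a mean of -0.19 ± 0.16 (adjusted p = 0.0362). Each probe was called in 3 of the 10 fits that left out 1 mouse, with an adjusted p of at most 0.0844 in the others. All 3 probes of inhibitors (2 genes) were thus called lower.

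Il31, a cytokine of T cells known for causing itch, ran from -0.53 to 0.10 with a median of -0.24. Its mean was -0.22 ± 0.20 (SD, n = 10; adjusted p = 0.038; 8 of 10 mice below 0), and it kept the call in 2 of the 10 fits without 1 mouse (adjusted p up to 0.0746). Of the 12 interleukin probes tested, 4 were called lower, 0 higher, and the median was -0.17. Those not called included Il1b (-0.22 ± 0.36), a main inflammatory cytokine of macrophages, and Il24 (-0.18 ± 0.19, adjusted p = 0.0659). Il4, a cytokine of helper T cells, was at -0.16 ± 0.26, and Il34, a ligand of the macrophage receptor Csf1r, at 0.01 ± 0.30 (n = 9).

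Of the 12 interleukin receptor probes tested 0 were called (median -0.05). The signalling subunit Il6st had discordant probes, 0.35 ± 0.48 (15601, 8 of 10 mice above 0, adjusted p = 0.108) and -0.21 ± 0.64 (2060). Il17rd, a receptor-like protein that also restrains growth factor signalling, was at -0.10 ± 0.09 with 9 of 10 mice below 0 (adjusted p = 0.0649), and Il18r1, the receptor of Il18, at 0.22 ± 0.70.

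Among chemokine ligands 3 of 22 probes were called lower (median -0.08). Ccl21a, which guides Ccr7-bearing lymphocytes and dendritic cells, was below 0 in 10 of 10 mice, from -0.38 through a median of -0.15 to -0.04. Its mean was -0.17 ± 0.10 (SD, n = 10), 1.13-fold lower (adjusted p = 0.0191), and it was called in all 10 fits that left out 1 mouse. Both dye orientations had means below 0, -0.15 in Cy5 and -0.20 in Cy3.

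Cxcl12, the stromal chemokine read by the receptor Cxcr4, was lower by 2 of its 3 testis probes and close to the threshold. Probe 4350 had a mean of -0.15 ± 0.13 (lowest -0.40, median -0.11, highest 0.00; adjusted p = 0.0423) and probe 1424 of -0.14 ± 0.13 (lowest -0.30, median -0.13, highest 0.06; adjusted p = 0.0498). The third probe, 18279, was at -0.12 ± 0.14 (adjusted p = 0.114). Probe 4350 was called in 2 and probe 1424 in 1 of the 10 fits that left out 1 mouse, with an adjusted p of 0.0524 to 0.107 for probe 1424 and 0.054 to 0.0961 for probe 4350 in the others. The mean of the 3 probes was called (-0.14, adjusted p = 0.0342).

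The remaining chemokine ligands ran from -0.52 (Ccl3, SD 1.18, n = 8) to 0.12 (Cxcl14, probe 6621, SD 0.66) in testis. Cxcl10, an interferon-induced ligand of T cells, was at -0.43 ± 0.89 (n = 8), from -1.81 to 0.23, and Ccl5, a chemokine that attracts T cells, at -0.25 ± 0.89, with 1 value of -2.76 in mouse 6065 and all others from -0.14 to 0.17. Of the 4 chemokine receptors (Ccr2, Ccr6, Ccr7 and Cxcr5) 0 were called, with means from -0.17 for Ccr7 to 0.03 for Cxcr5.

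Ifngr1, the ligand-binding subunit of the interferon-gamma receptor, was the only interferon receptor called. Its 10 values ran from -0.24 through a median of -0.12 to just below 0, with a mean of -0.12 ± 0.08 (SD, n = 10), 1.09-fold lower (adjusted p = 0.0362), and it was called in 3 of the 10 fits without 1 mouse (adjusted p up to 0.0796). Its partner subunit Ifngr2 was at 0.17 ± 0.28, above 0 in 8 of 10 mice (adjusted p = 0.188). Ifnar2, of the type I interferon receptor, was at -0.22 ± 0.30 (probe 5190), -0.10 ± 0.14 (19191) and 0.00 ± 0.25 (18922), none called.

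**Figure D2:**
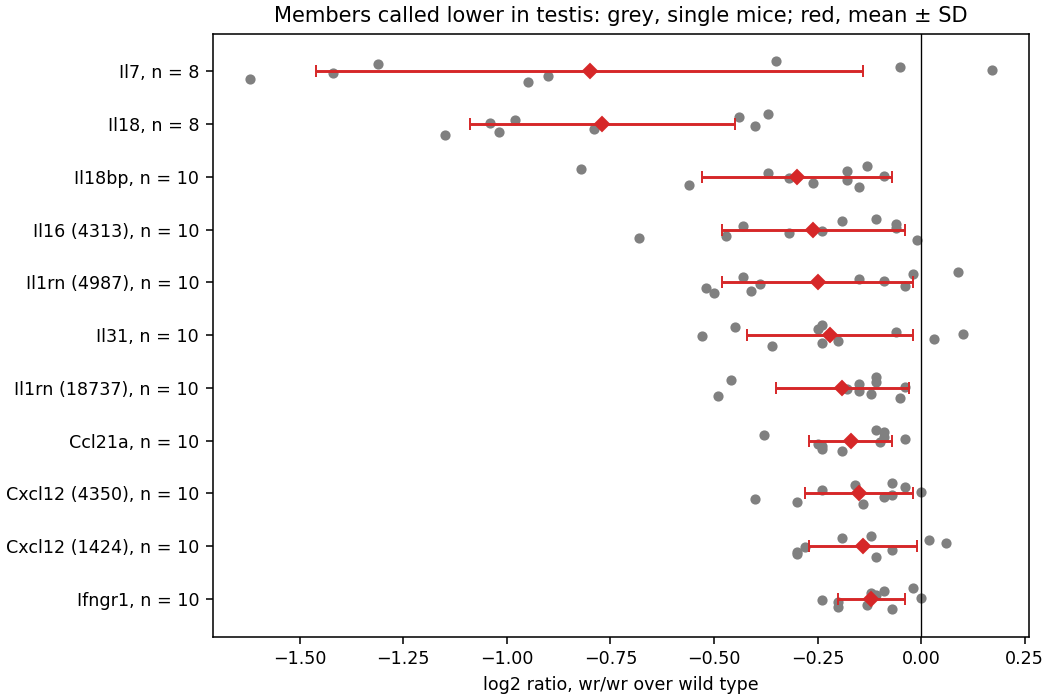
Log2 ratios of wr/wr over wild type for the 11 member probes called lower in testis. Grey points are single mice and red diamonds are means with SD bars; n is the number of mice with a value. Il7 and Il18 lie farthest from 0, and the other 9 means lie between -0.30 and -0.12.

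No TNF ligand or receptor was called in testis. Tnf itself, the founding ligand of the family, was at -0.14 ± 0.23, from -0.64 through -0.10 to 0.21 (adjusted p = 0.204). Its widely expressed receptor Tnfrsf1a was at 0.05 ± 0.20, and Tnfrsf1b, the receptor of immune and glial cells, at -0.24 ± 0.27 with 9 of 10 mice below 0 (adjusted p = 0.0676). Tnfrsf19, an orphan receptor of the family, was at 0.20 ± 0.21 with 9 of 10 mice above 0 (adjusted p = 0.0624). The 14 receptor probes had a median of 0.04, the 6 ligand probes one of -0.10, and the 9 probes of TNF-induced proteins (Tnfaip) one of -0.03.

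The TGF-beta ligands and receptors had 0 calls among 6 probes. Tgfb1, which restrains immune cells, was at -0.18 ± 0.21 with 9 of 10 mice below 0 (probe 5598, adjusted p = 0.0776), Tgfb2 at -0.02 ± 0.10 and Tgfb3 at 0.10 ± 0.26. The coreceptor Tgfbr3 was at -0.22 ± 0.27 (adjusted p = 0.0808), and the probes of the signalling receptor Tgfbr2 were at -0.03 ± 0.11 (1378) and -0.28 ± 0.90 (15296). The 6 other probes caught by the symbol rule (Ccrl2, an atypical receptor, Il4i1, an amino acid oxidase, Tgfbi, a matrix protein, and Tgfbrap1) had means from -0.09 to 0.10 and 0 calls.

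The last 149 probes of the table (20207 to 20355), listed alphabetically, were measured with more gaps than the rest and hold 30 of the members, Il18 and Il7 among them. Of the values on these 30 members 37.9% were missing before large values were set to missing, against 2.71% on the other 85. In testis 14 of the 30 were tested, with a median SD of 0.87, against all 85 others with a median SD of 0.20. Il18 and Il7 were the 2 probes called lower among the 76 tested in this stretch, which had a median of -0.16. Without the stretch, 9 of 85 members (10.6%) were called lower and the median was -0.04. The 16 members not tested in testis were all in it: Ccl4, Ccl7, Ccl24, Il2, Il6, Il12b, Il13, Il15, Il2ra, Il5ra, Il7r, Il10ra, Il13ra1, Tnfaip3 and 1 probe each of Il2rb and Tgfb1.

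Of the genes that carry cytokine signals, 147 probes were tested in testis and 4 were called higher (2.72%) and 5 lower (3.4%), both below the 7.44% and 5.16% of all probes (median -0.02). Lower were Irf8, a transcription factor of macrophages (-0.14 ± 0.08, adjusted p = 0.0231), the interferon-induced Oas1a (-0.29 ± 0.27), 1 of 5 probes of the STAT inhibitor Pias1 (-0.28 ± 0.25, the others from -0.01 to 0.03), and 1 of 2 probes each of the bone morphogenetic protein Bmp7 (-0.15 ± 0.13, the other -0.20 ± 0.60) and the neurotrophic cytokine Cntf (-0.23 ± 0.18, the other -0.12 ± 0.14). Higher were Irf3, which switches on interferon genes (0.17 ± 0.12), 1 of 2 probes of the death receptor adaptor Fadd (0.15 ± 0.13, the other -0.10 ± 0.22), and Inha (0.24 ± 0.20) and Amhr2 (0.26 ± 0.18), the inhibin alpha subunit and the receptor of anti-Müllerian hormone. By class, calls were 0 of 14 for receptor kinases and STATs, 1 lower of 15 for SOCS and PIAS inhibitors, 1 higher of 22 for TNF and interleukin receptor adaptors, 0 of 13 for NF-kB subunits and inhibitors and 0 of 24 for SMADs and their partners. They were 1 higher and 2 lower of 23 for interferon factors and induced genes, 2 higher and 1 lower of 14 for activins, inhibins and bone morphogenetic proteins, and 1 lower of 22 for other cytokines.

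Cell type markers in testis differed from list to list. Over all probes tested, 5.16% were called lower and 7.44% higher. Microglia and macrophage markers had 4 of 16 probes called lower, C1qa (-0.24), C1qc (-0.15), Cd68 (-0.37) and 1 of 2 Lyz2 probes (-0.18). Among the 16, 6 had means above 0, such as the other Lyz2 probe (0.27 ± 0.38) and Tyrobp (0.24 ± 0.45). The list median was -0.03 and ranged from -0.26 to 0.13 over mice. T cell markers had 2 of 11 lower (median -0.11), 1 of 2 probes each of Cd2 (-0.21, the other -0.06) and Thy1 (-0.22, the other -0.11). Of the 11, 4 had means above 0, the highest Cd3e (0.43 ± 0.76, n = 8). B cell markers had 2 of 5 lower, both Cd74 (median -0.13), with Cd79b at -0.03. Neutrophil markers had 2 of 14 lower (median -0.11), Elane (-0.24) and 1 of 2 Lcn2 probes (-1.39, the other -0.11). Leydig markers had 3 of 6 lower (median -0.21, from -0.42 to -0.01 over mice), with Hsd3b1 above 0 (0.25 ± 0.28). Sertoli markers had 4 of 6 higher (median 0.29), with Rhox5 at -0.01 and 1 of 2 Sox9 probes at -0.14. Astrocyte markers had 2 of 7 higher, both Vim. Markers of endothelium (6 tested, median -0.04), mast cells (2, median -0.15) and cytotoxic cells (2, median -0.09) had 0 calls. Their part in the cytokine results was not tested.

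In the spinal cord 0 members were called, as were 0 of all 16893 probes tested (lowest adjusted p 0.518), and cord values below are described with limma's unadjusted p. The members with the smallest p above 0 were Tnf and its receptors Tnfrsf1a and Tnfrsf1b, the receptors Tnfrsf25 and Tnfrsf13b, the interleukins Il16 and Il15, the inhibitor Il18bp and the chemokine Ccl6. Of 69 members tested (57 genes), 9 were higher (13%) and 1 lower (1.45%) at an unadjusted p under 0.05, against 4.62% and 4.66% of all probes (9.28% in either direction). Values were above 0 in all 3 RNAs for 24 members (34.8%, against 18.5% of all probes) and below 0 in all 3 for 12 (17.4% against 21%). The median member ratio was 0.06, against 0.00 over all probes. The 9 higher became 3 without pool1 (4.23%, against 3.53% of all probes), 5 without pool2 (6.94% against 2.23%) and 8 without mouse 5995 (8.51% against 4.13%). The 1 lower became 2 without pool2 (2.78% against 1.44%) and 6 without mouse 5995 (6.38% against 3%). With the sign of the Cy3 arrays turned, 3 were higher (4.35% against 6.73%) and 6 lower (8.7% against 7.84%).

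Tnfrsf1a, the TNF receptor with a death domain, was at 0.50 in pool1, 0.55 in pool2 and 0.53 in mouse 5995. These values are nearly equal, and the mean was 0.53 ± 0.02 (SD over 3 RNAs), 1.44-fold higher (unadjusted limma p = 0.00744, adjusted p = 0.518), with means of 0.47 in Cy5 and 0.58 in Cy3. Tnfrsf1b, the second TNF receptor, was at 0.53, 0.65 and 1.34 in the same order, highest in mouse 5995, with a mean of 0.84 ± 0.44, 1.79-fold higher (unadjusted limma p = 0.0135). Its means were 1.17 in Cy5 and 0.51 in Cy3.

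Tnf was at 0.26 in pool1, 1.14 in pool2 and 2.00 in mouse 5995. All 3 were above 0 but far apart, with a mean of 1.14 ± 0.87, 2.20-fold higher (unadjusted limma p = 0.0329). Its dye orientations differed, 0.47 in Cy5 and 1.80 in Cy3. Tnfrsf25, a death domain receptor of lymphocytes, was at 0.62, 0.45 and 1.36, with a mean of 0.81 ± 0.48 that came from the Cy3 arrays (1.58, against 0.04 in Cy5). Tnfrsf13b, a B cell receptor for Tnfsf13, was at 0.31, 0.36 and 0.44, with a mean of 0.37 ± 0.07 and like dye orientations (0.38 and 0.36).

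Other TNF ligands were less even. Tnfsf11, a ligand that drives osteoclasts, was at 2.94, 0.07 and 1.05 (mean 1.35 ± 1.46) and is a probe of the sparse closing stretch. Tnfsf13, a survival factor of B cells, was at 0.88, -0.12 and 0.90, with -0.81 in Cy5 and 1.92 in Cy3. Tnfsf10, which can trigger cell death, was at 0.09, 0.23 and 0.33. Below 0 in every RNA was Tnfsf12 (-0.13, -0.19 and -0.57; mean -0.30 ± 0.24), the ligand of Tnfrsf12a, which itself was at 0.14, 0.32 and 0.31.

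Tnfrsf11a, the receptor of Tnfsf11, was the 1 member lower at an unadjusted p under 0.05. Probe 9951 was at -0.58 in pool1, -0.26 in pool2 and -1.03 in mouse 5995, with a mean of -0.62 ± 0.38, 1.54-fold lower (unadjusted limma p = 0.0267). The other probe of the gene (6151) had a value only in pool2, -1.47. Tnfaip2, a TNF-induced protein, was below 0 in all 3 RNAs by both probes, with means of -0.44 ± 0.38 (14249) and -0.31 ± 0.23 (11640), neither under 0.05. Its probe 14249 was at -1.16 in Cy5 and 0.27 in Cy3.

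Il16 was higher in cord by the same probe that was lower in testis. Probe 4313 was at 0.47 in pool1, 0.72 in pool2 and 0.71 in mouse 5995, with a mean of 0.63 ± 0.14, 1.55-fold higher (unadjusted limma p = 0.00577), and with like means in Cy5 (0.66) and Cy3 (0.61). The other Il16 probes were at -0.03 ± 0.28 (5627) and -0.02 ± 0.17 (6758), and the mean over the 3 probes was 0.19. Il18bp was at 0.28, 0.42 and 0.49, with a mean of 0.40 ± 0.11, 1.32-fold higher (unadjusted limma p = 0.0249). Il18 had a cord value only in pool2, 0.09, and could not be tested. Il15, a growth factor of cytotoxic lymphocytes, was at 1.35, 1.02 and 0.13 (mean 0.83 ± 0.63, unadjusted limma p = 0.0361), with -0.25 in Cy5 and 1.92 in Cy3.

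Il1b had no common direction in cord, at -0.43, -0.59 and 0.80 (mean -0.07 ± 0.76), with -1.03 in Cy5 and 0.89 in Cy3. Il6 had a value only in pool2 (0.15). Of 7 interleukin receptor probes 0 had an unadjusted p under 0.05, with means from -0.25 (Il6st, probe 15601) to 0.27 (Il17rc and Il17rd).

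Among chemokines, Ccl6, a macrophage chemokine of rodents, was at 0.37 in pool1, 0.38 in pool2 and 0.88 in mouse 5995. Its mean was 0.54 ± 0.29, 1.46-fold higher (unadjusted limma p = 0.0248), with 0.42 in Cy5 and 0.67 in Cy3. Ccl12, a monocyte attractant, was at 0.53, 1.30 and -0.20, and Ccl5 at 0.11, 0.20 and 0.41. Ccl22, which attracts regulatory T cells, was at 0.19, 0.18 and 0.54, but at -0.41 in Cy5 and 1.02 in Cy3.

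The 3 Cxcl12 probes disagreed in cord. Probe 4350 was at -0.23, -0.25 and -0.25, with a mean of -0.24 ± 0.01 (unadjusted limma p = 0.0861). Probe 1424 was at 0.13, 0.28 and 0.96 and probe 18279 at 0.01, 0.22 and 2.07, both highest in mouse 5995. Below 0 in all 3 RNAs were also Cxcl14, a chemokine of epithelia and brain, by probe 18939 (-0.45, -0.13 and -0.36), though its probe 6621 had a mean of 0.54 ± 0.85, and Ccl8, a monocyte attractant (-0.29, -0.39 and -0.10).

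**Figure D3:**
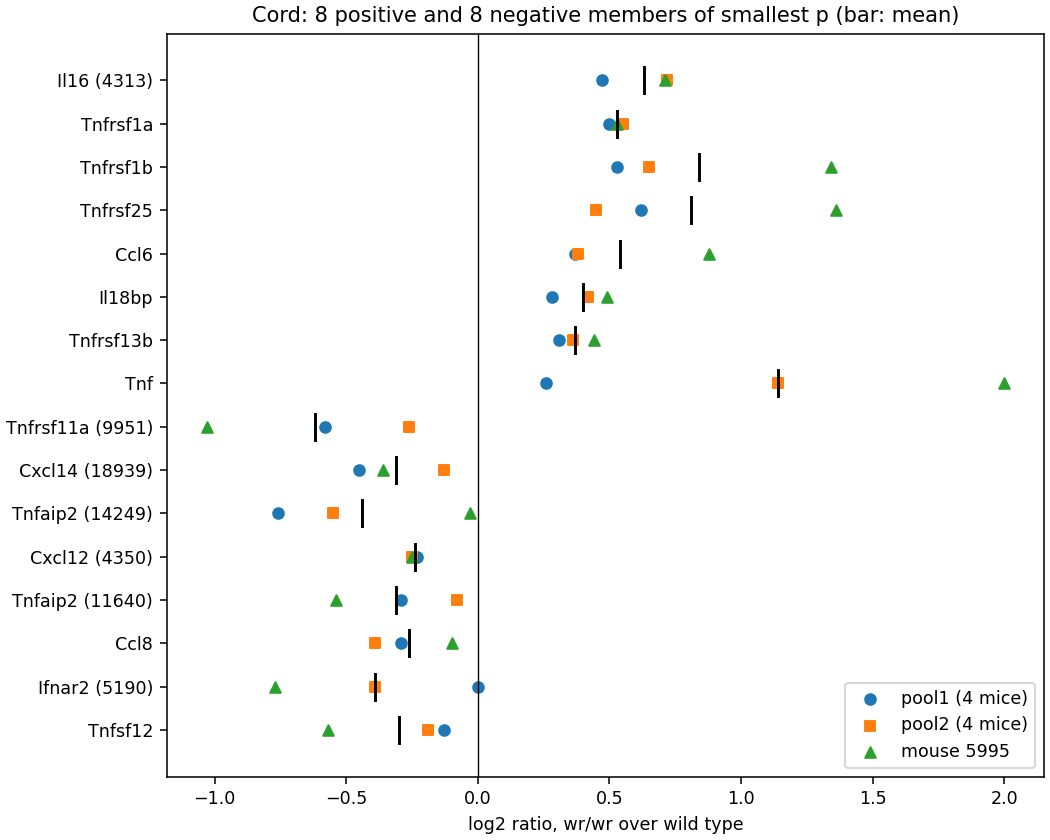
Cord log2 ratios of wr/wr over wild type for the 8 members above 0 and the 8 below 0 with the smallest unadjusted p. Symbols are the 3 RNAs and black bars their mean. The 3 RNAs of Tnfrsf1a lie within 0.50 to 0.55, while those of Tnf run from 0.26 to 2.00.

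Tgfb1 (probe 5598) was at 0.16, 0.15 and 0.31 in cord and Tgfb2 at 0.12, 0.24 and 0.40, neither under 0.05. Tgfb3 had values in pool1 (-0.57) and pool2 (-1.10) only, and the second Tgfb1 probe, in the sparse stretch, had -1.02 in pool1 and -1.43 in mouse 5995. Of the interferon receptors, Ifnar2 was at 0.00, -0.39 and -0.77 by probe 5190 and at 0.04 ± 0.03 and -0.14 ± 0.12 by the others. Ifngr1 and Ifngr2 had values in the pools only, 0.45 and 0.30 for Ifngr1 and 0.47 and 0.97 for Ifngr2. In all, 46 members were not tested in cord, of which Ccl7, Il10ra, Il12b, Il2 and Il7 had no value in any cord RNA, and 5 of the 30 in the sparse stretch were tested.

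Signalling genes in cord had 8 probes higher and 3 lower at an unadjusted p under 0.05 among 106 tested (7.55% and 2.83%, against 4.62% and 4.66% of all probes), none called. Higher were the interferon-induced Ifit3 (0.62 ± 0.43), Ifitm1 (0.43 ± 0.08) and Ifitm2 (0.32 ± 0.05), Irf8 (0.43 ± 0.17), the activin subunit Inhba (0.54 ± 0.22), the SMAD corepressor Tgif1 (0.45 ± 0.26), 1 of 2 probes of the TGF-beta coreceptor Eng (0.41 ± 0.14, but -1.0 in Cy5 and 1.81 in Cy3; the other 0.10 ± 0.15) and the lymphotoxin receptor Ltbr (0.39 ± 0.22). Lower were 1 of 2 probes of Fadd (-0.60 ± 0.15, the other -0.13 ± 0.25), 1 of 2 probes of Socs7 (-0.40 ± 0.21, the other -0.33 ± 0.40) and Irf3 (-0.32 ± 0.10). Of the genes called in testis, Fadd, Irf3 and Irf8 were among these, each with the opposite sign in cord.

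Microglia and macrophage markers were above 0 in cord for 12 of 14 probes, and 10 had an unadjusted p under 0.05. Their list median was 0.62 (0.67 in pool1, 0.67 in pool2 and 0.57 in mouse 5995), with values from -0.42 to 1.43, the highest being Lgals3. Below 0 were both probes of Ptprc (-0.23 and -0.42). Astrocyte markers had 3 of 6 probes higher and 1 lower (median 0.48). The higher were Gfap (0.69 ± 0.28) and both Vim probes (1.42 and 1.15), and the lower was S100b (-0.57 ± 0.07). The medians of T cell, neutrophil and Sertoli markers were 0.22, 0.17 and 0.19, those of B cell, Leydig and endothelial markers -0.02, -0.15 and -0.19. Their part in the cytokine results was not tested.

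**Figure D4:**
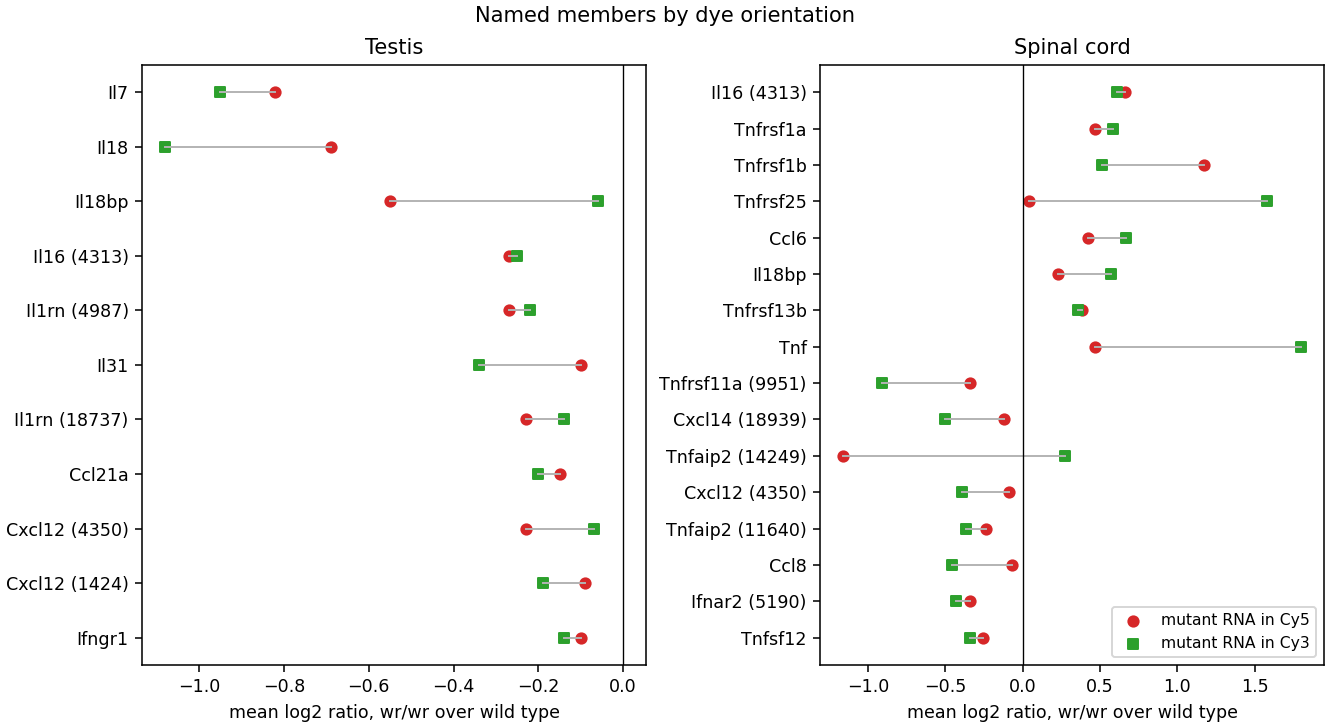
Mean log2 ratio of wr/wr over wild type on arrays with the mutant RNA in Cy5 (red circles) and in Cy3 (green squares) for the members called in testis (left) and the 16 described in cord (right). Il16 (probe 4313) has nearly the same value in both orientations in each tissue, while Il18bp in testis and Tnfrsf25 and Tnf in cord lie far apart.

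The difference between tissues, testis minus cord, was tested for the 67 members with values in both tissues. Of these, 28 (41.8%, against 30.6% of all probes) were lower in testis and higher in cord, 19 were lower in both, 10 higher in both and 10 higher in testis and lower in cord. With 1 spread pooled over the 13 RNAs, 14 members had a more negative ratio in testis (20.9%, against 10.7% of all 16838 probes) and 3 a more positive one (4.48% against 11%), 25.4% against 21.7% in all. These calls depended on the model. With array weights per tissue, which let the spread differ between tissues, 0 members and 25 probes were called, and when testes were matched by animal to the cord RNA they belong with (the block) 0 members and 0 probes were called, though 2312 probes had an unadjusted p under 0.05. Without mouse 5995, 8 of the 17 calls were kept. With the Cy3 arrays turned, 8 members were higher (11.9%, against 7.44% of all probes) and 1 lower (1.49% against 4.28%), and 0 of the 17 kept its direction and call.

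Il16 (probe 4313) had the smallest p of the members: -0.26 in testis, 0.63 in cord and a difference of -0.89 ± 0.13 (SE; adjusted p = 0.00149, 0.128 with array weights and 0.356 paired). Tnfrsf1b differed by -1.08 ± 0.19 (SE; adjusted p = 0.00299) and Il18bp by -0.70 ± 0.14 (adjusted p = 0.00466), both below 0 in testis and above 0 in cord. Tnf differed by -1.27 ± 0.26 (adjusted p = 0.00565), Tnfrsf25 by -0.85 ± 0.17, Cxcl12 (probe 1424) by -0.60 ± 0.14 and Ccl6 by -0.58 ± 0.15 (adjusted p = 0.0843 without mouse 5995). Tnfrsf1a differed by -0.47 ± 0.12, with a testis ratio near 0. More positive in testis were Tnfrsf11a (probe 9951; 0.68 ± 0.15, adjusted p = 0.0527 without mouse 5995) and Tnfrsf19 (0.59 ± 0.16, adjusted p = 0.0894 without mouse 5995 and 0.1 without pool2). For these 10 the adjusted p was 0.114 to 0.321 with array weights and 0.356 to 0.409 with the animals paired.

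The other 7 called, beyond those 10, were Il4i1 (probe 5996, 0.34), Tnfsf13 (-0.59), Ccl22 (-0.36), Tgfb2 (-0.28), Tnfaip8l1 (-0.30), Tgfb1 (probe 5598, -0.39) and the Cxcl12 probe 18279 (-0.88). Probe 4350 of Cxcl12 did not pass, with -0.15 in testis, -0.24 in cord and a difference of 0.09 ± 0.09 (adjusted p = 0.467). Nor did the Il16 probes 5627 (-0.05, adjusted p = 0.723) and 6758 (0.07, adjusted p = 0.861).

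**Figure D5:**
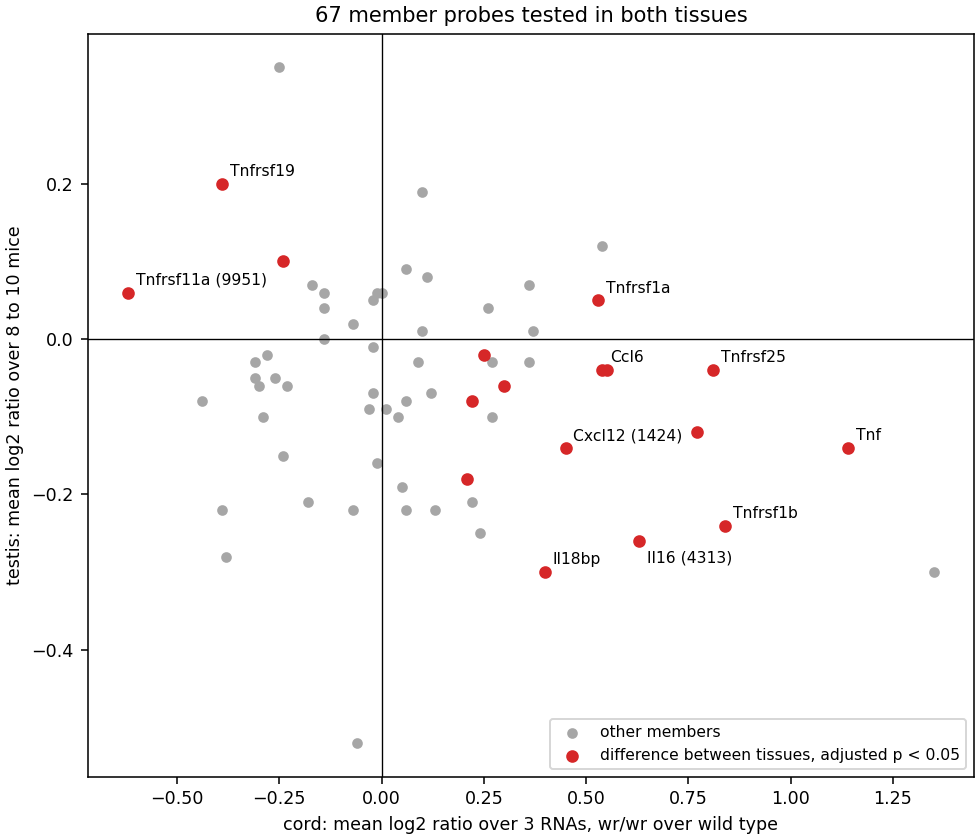
Mean testis log2 ratio (vertical, over 8 to 10 mice) against mean cord log2 ratio (horizontal, over 3 RNAs) for the 67 member probes tested in both tissues. Red points differ between tissues at an adjusted p under 0.05 with 1 pooled spread, and the 10 of smallest p are labelled. Il16 (probe 4313), Tnfrsf1b, Il18bp and Tnf lie to the lower right, below 0 in testis and above 0 in cord.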

How the data were processed

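Values came from the authors' deposited table of 1 ratio per probe and array, read as a log2 ratio. Its base and direction, and any background correction or normalization, have no statement in the labels. Values over 10 in size (1472 in all, 39 of the 5066 on members) were set to missing, each array was centred on its median, and the Cy5 and Cy3 means were averaged per RNA, so that arrays of 1 RNA count as 1 replicate. Genes were named from the platform annotation, and all 115 member symbols were found in RefSeq. The limma package (3.58.1, R 4.3.3; lmFit and eBayes) tested whether means differ from 0 on all probes with values in at least 8 of 10 testis mice or all 3 cord RNAs, and p-values were adjusted by Benjamini-Hochberg (calls under 0.05). The tissue difference was fitted over 13 RNAs with 1 pooled spread. The code was tested on simulated data. Precision is limited by the number of arrays and by 1 wild-type pool per tissue.

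The text describes each member called in testis, the 8 positive and 8 negative cord members with the smallest p, the 10 most significant tissue differences and 15 probes of central cytokines and receptors. A few others (such as Il15) were picked after their values were seen. Members and lists were chosen with earlier results of these data known. Alternatives changed the treatment of large values, centring, the sign of Cy3 arrays, the dye orientations used, robust fitting, averaging of probes, the number of values required, array weights and the mice included. The array numbers in the titles pair nothing. Cord and testis share animals, but their deviations from the tissue means correlated at only -0.00444 (pool1), 0.0127 (pool2) and -0.0134 (mouse 5995), and the fit paired by animal is an alternative.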

Additional observations from a re-analysis of the deposited data

Results flagged for a closer look

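In 4 of 33 member probes of the testis checked for this, 1 mouse lay far from the other 9. The nominal rate is about 1 in 20, but no share over all probes is given, so the count shows no excess among members. Members beyond these 4 can also have such a mouse, such as Ccl5 at -2.76 in mouse 6065. Tgfb1 (probe 5598) was at -0.72 in mouse 5907, and the next mouse was at -0.24. Tgfb3 was at -0.59 in mouse 6065 with the next at 0.05, and without that mouse its mean was 0.18 (adjusted p = 0.0237). Tgfbr2 (probe 15296) was at -2.57 in mouse 6493, with the next at -0.83. Ifnar2 (probe 5190) was at -0.96 in mouse 6065, with the next at -0.33.

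The ratio differed between the tissues by the test with 1 pooled spread for 10 described members. Testis minus cord was -1.27 for Tnf, -1.08 for Tnfrsf1b, -0.89 for Il16 (probe 4313), -0.85 for Tnfrsf25, -0.70 for Il18bp, -0.60 for Cxcl12 (probe 1424), -0.58 for Ccl6 and -0.47 for Tnfrsf1a. It was 0.68 for Tnfrsf11a (probe 9951) and 0.59 for Tnfrsf19. All 10 missed the threshold with array weights and with the animals paired.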

How the results depend on the processing

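All 11 lower calls in testis were kept when large values were kept or arrays left uncentred, 10 with robust fitting and 10 with values in at least 3 mice, and the 9 that could be tested with values in all 10 mice. By single dyes most were lost: with Cy5 arrays alone 8 members were lower (7.34%, against 7.11% of all probes) and 1 higher, with 4 of the 11 kept, and with Cy3 arrays alone 6 were lower (5.45% against 4.08%; 1344 probes called in all), with 3 kept. Leaving out single mice gave 3 to 10 members lower, 0 to 3 higher and 867 to 2627 probes called, and without the 3 mice of discordant dyes 5 members were higher.

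With the Cy3 arrays turned, 981 testis probes were called, with 0 members lower and 2 higher. The testis means then became 0.08 for Il18, 0.12 for Il31, 0.05 for Cxcl12 (probe 1424), 0.03 for Ccl21a, 0.02 for Ifngr1, 0.19 for Tnf and 0.18 for Tgfbr2 (probe 1378). In cord 3 members were then higher and 6 lower. For the difference 1972 probes were called, with 8 members higher and 1 lower, and the sign changed for Cxcl12 (probe 1424, 0.62), Tnfrsf25 (0.93), Ccl6 (0.17), Tnfrsf11a (-0.31) and Tnf (0.86). This setting is another reading of the deposited sign. Without turning, some ratios kept sign and size across Cy5 and Cy3, as ratios of wr/wr over wild type would. They include Lgals3 (1.44 and 1.42) and Gfap (0.61 and 0.77) in cord and Hsd17b3 (-0.57 and -0.52) in testis. Others did not, such as Eng in cord (probe 15585, -1.0 and 1.81). Which reading holds for every array is not stated and was not tested.

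In cord, at an unadjusted p under 0.05, Cy5 alone had 6 members higher and 6 lower (7.41% each, against 2.34% and 4.72% of all probes) and Cy3 alone 11 and 6 (12.9% and 7.06%, against 9.28% and 7.82%). With probes averaged 8 were higher and 2 lower, against 671 and 596 of all 13851 averaged values tested. With values in at least 2 RNAs 10 were higher and 5 lower (10.1% and 5.05%, against 4.39% and 3.86% of all probes). Leaving out 1 RNA gave 3 to 8 higher and 1 to 6 lower. No cord probe was called under any of these settings.

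For the difference, array weights left 25 probes and 0 members called in either direction. The replicate block, which pairs the animals across tissues and leaves 3 differences, gave 0 probes and 0 members, higher or lower. It was not run on testis or cord alone, where nothing is paired. Leaving out 1 cord RNA, chosen after seeing the data, gave 2844 to 4593 probes, 3 to 4 members higher and 12 to 15 lower. These were 3.41% to 5.88% of members higher, against 6.8% to 13.2% of all probes. Lower were 17% to 22.1%, against 7.77% to 14.1%. The causes of these changes were not tested.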
